A study of Mus musculus with 4 samples.

Results

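Xdh, mt-Co1, Pfkfb4, H6pd, Lpin2, Cpox and Aldh18a1 encode enzymes of purine oxidation, respiration, glycolytic control, pentose phosphate, lipid, haem and proline metabolism. These 7 genes were taken by symbol from a count table of 1175 genes of mouse bone, and all 7 were found. They were selected on earlier results of the same exercise contrast together with their function, so their exercise values are given as a description and support nothing by themselves. The bones came from 13-week-old mice that were wild type for genotype and for Cre, and the study's text gives the running mice as C57BL/6J. For Exercise, medium-intensity treadmill running with electric shock switched on began at 8 weeks of age and lasted 5 weeks, while Sedentary mice were not trained. The bone was ground after its marrow had been flushed out, and polyadenylated RNA was sequenced with molecular barcodes (UMIs). Each group had 2 libraries, and whether these came from separate animals is not given in the sources used here, so any error below may be technical.

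Xanthine dehydrogenase, the product of Xdh, carries out the last steps of purine breakdown up to urate, and in its oxidase form it passes electrons to oxygen. The mitochondrial genome encodes mt-Co1, the catalytic subunit of cytochrome c oxidase, while the other enzymes are encoded in the nucleus. In bone, proline feeds collagen synthesis and haem synthesis is most active in erythroid cells, which residual marrow can hold, and in humans loss of LPIN2 causes Majeed syndrome, an inflammatory disease of bone.

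The counts of the table summed to 1160883 and 2680636 in exercise replicates 1 and 2 and to 594856 and 516963 in sedentary replicates 1 and 2. The table holds selected genes only, all of them with the higher mean count in exercised bone, and these sums are not sequencing depths. Values are therefore given as shares, which are counts per 1000000 counts of the table in the same library. A share says how a gene stood among the listed genes, and it cannot say whether the gene rose in the whole transcriptome. Over the 1005 genes whose mean reached 100 counts, the log2 share ratio between replicates had an SD of 0.70 in the exercise pair and 0.27 in the sedentary pair. The chi-square between replicates over whole-count genes was 59.3 per degree of freedom in the exercise pair and 1.67 in the sedentary pair. Neither pair held identical counts, and these values cannot tell technical repeats from separate animals. Of 12 fixed osteoblast and osteocyte markers, only Sost was listed, so this table could not be used to check the labelled tissue further.

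The deposited counts were whole numbers for Pfkfb4, H6pd, Lpin2 and Aldh18a1 and had fractions for Xdh, mt-Co1 and Cpox. Dividing a read among several genes would leave fractions, so the transcripts of each gene were searched for stretches of 100 bases that also occur, on either strand, in a transcript of another gene. No such stretch was found in the 4 whole-count genes, and all 3 fractional genes had them. Over the whole table, 82.6% of the 568 fractional genes with annotated transcripts had a shared stretch, against 18.5% of 595 whole-count genes.

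The 3 fractional genes differed in where the shared sequence lay. In mt-Co1 (ENSMUSG00000064351.1, mitochondrial genome, bases 5328 to 6872, plus strand) it covered 743 of 1545 bases of the only transcript, nearly all in the coding sequence. The main partner was Gm29216, an unprocessed pseudogene on chromosome 1, which was identical to mt-Co1 at 482 of 483 aligned bases. The 60-base window below holds their single difference, and it is shown because nearly all of this stretch gives a read no means to choose between the mitochondrial gene and its nuclear copy. The window lies at chrM:6390-6449 on the plus strand and at chr1:24616129-24616188 on the minus strand (mm10), each is written 5′ to 3′, and the capital marks the base that differs.
mt-Co1: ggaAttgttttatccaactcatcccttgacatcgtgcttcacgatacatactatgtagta
Gm29216: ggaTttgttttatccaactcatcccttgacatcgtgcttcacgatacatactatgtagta

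In Xdh (ENSMUSG00000024066.9, chromosome 17, 73883895 to 73950196, minus strand) the shared bases numbered 0 of 4600 in the full-length coding transcript Xdh-201. They lay in Xdh-206, a retained-intron transcript with 941 shared bases of 7775, and in Xdh-202, a processed transcript with 103 of 580. Cpox (ENSMUSG00000022742.6, chromosome 16, 58670292 to 58717636, plus strand) had 0 shared bases of 3097 in its coding transcript, 156 of 2994 in the retained-intron transcript Cpox-205 and 204 of 614 in Cpox-206. The processed pseudogene CT025731.2 lies within the Xdh gene on the same strand and shared no such stretch with its transcripts. The end of Cpox overlaps Gpr15 on the opposite strand, and the strand setting of the counting is not given. None of the partner genes of these 3 genes was in the table. The fractional counts of Xdh and Cpox thus went with sequence outside their coding transcripts, and whether reads of those transcripts set any value below was not tested.

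Every member had more counts in both exercise libraries than in both sedentary ones, as did 1171 of the 1175 listed genes. The ratio of mean counts was 8.61 for Xdh and 2.80 to 3.40 for the other 6 genes, against a median of 3.85 over the table (quartiles 3.21 and 5.74). The ratio of 6 of the 7 genes was thus under the table's median. These ratios contain any difference in depth, and the shares below do not.

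In shares, Xdh stood higher in exercised bone and the other 6 genes stood near or a little below their sedentary level. Shares of both exercise libraries lay above both sedentary shares in 1 member, Xdh, against 36% of all listed genes. They lay below in 3 members, mt-Co1, H6pd and Cpox, against 16.1% of all genes, and overlapped in the other 3. The genes were chosen with this contrast known, so nothing is read from these counts. The median log2 share ratio of the 7 genes was -0.07, and that of all 1175 genes was 0.14.

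**Figure D1:**
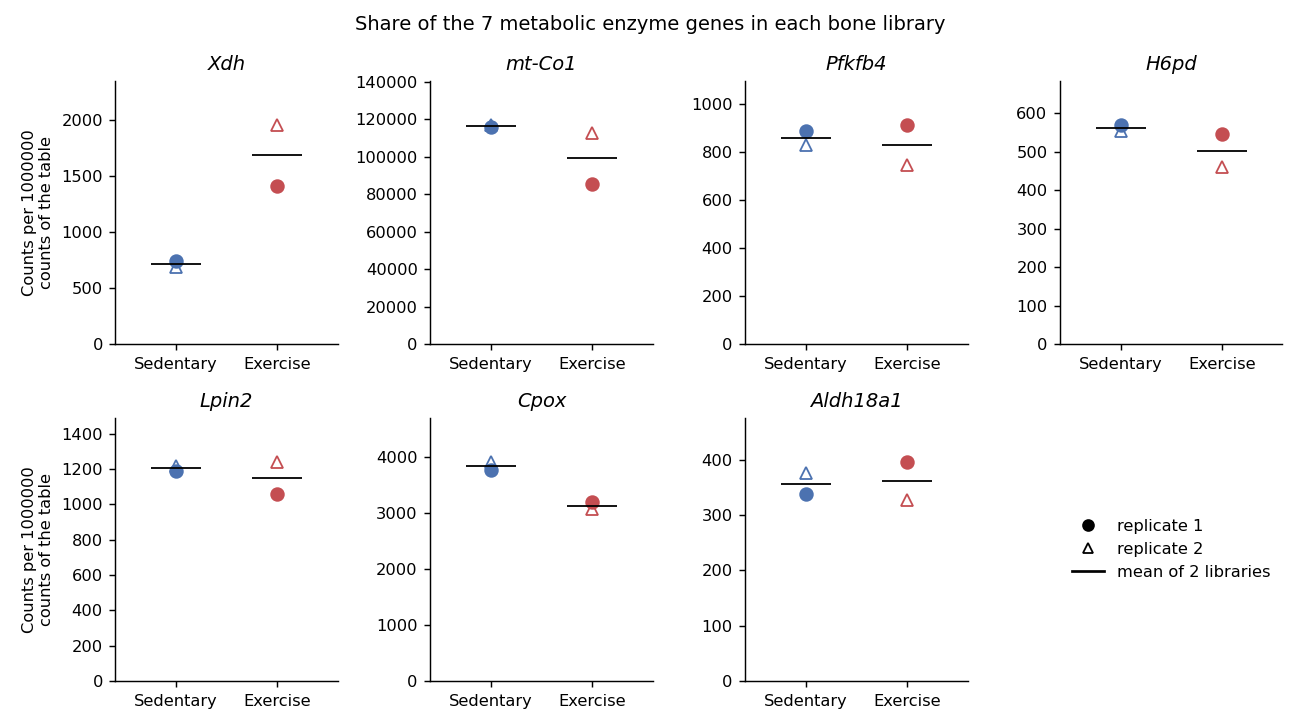
Share of each of the 7 genes (y axis, counts per 1000000 counts of the table, from 0) in the 2 sedentary and 2 exercise libraries, with a line at the mean of each group. Xdh lies at 744 and 690 in sedentary and at 1413 and 1955 in exercised bone, while the groups of the other genes lie close together or overlap.

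Xdh had 442.33 and 356.92 counts in sedentary replicates 1 and 2 and 1640.89 and 5241.66 in exercise replicates 1 and 2. These were shares of 744 and 690 in sedentary bone, a mean of 717 ± 37.6 (SD, n = 2), and of 1413 and 1955 in exercised bone, a mean of 1684 ± 383. The groups did not overlap, and exercise replicate 2 was the higher of the exercise pair. The log2 share ratio was 1.23 ± 0.20 (SE, edgeR), a mean share 2.35 times that of sedentary bone. In bulk bone, more cells that express a gene and more RNA per cell cannot be told apart.

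The study's thresholds were an unadjusted p of less than 0.05 with an absolute log2 ratio of more than 0.25. Of the 7 genes Xdh alone passed them with a higher share, as did 11.3% of all listed genes, and nothing is read from this. No member passed an adjusted p of 0.05 in edgeR, which 0.34% of the listed genes did, while 1 member, Xdh, passed it with the Wald test of DESeq2, against 3.06% of all genes, and 0 did with limma-voom. Without exercise replicate 1 or without exercise replicate 2, 3 members passed it, Xdh, Cpox and mt-Co1, in fits where 55.4% and 27.1% of all genes passed. Xdh passed the study's thresholds in all 12 alternatives that could fit it, with log2 share ratios from 0.98 without exercise replicate 2 to 1.45 without exercise replicate 1. Its ratio ranked 200th of 1175, with 83.0% of genes below it, so a rise of this size was not rare in the table. Genes with fractional counts passed with a higher share more often than those with whole counts, at 16.9% of 579 against 5.87% of 596, and Xdh is one of the former. The part of divided reads in its value was not tested.

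**Figure D2:**
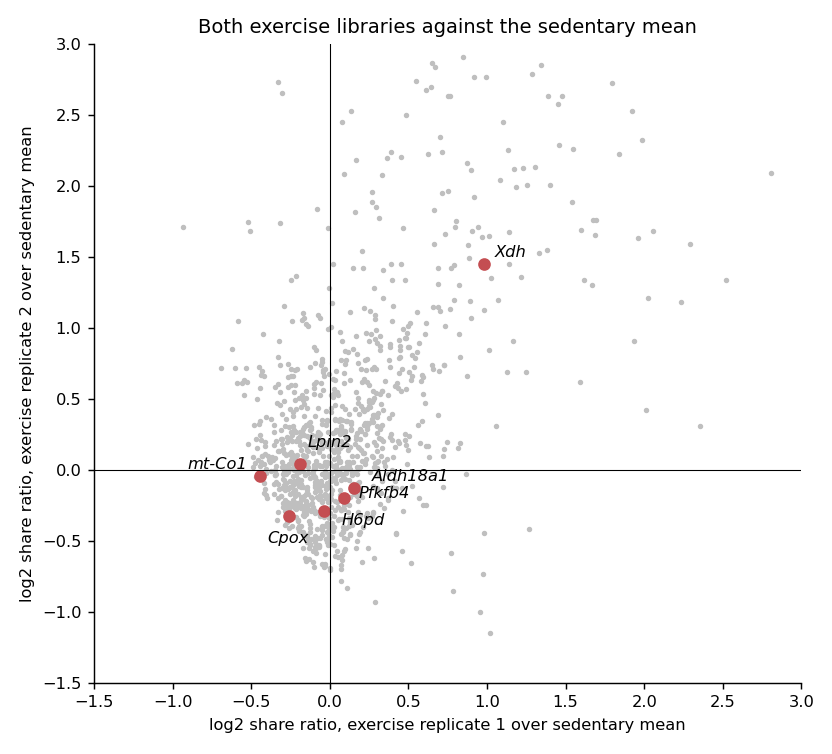
Log2 share ratio over the sedentary mean in exercise replicate 1 (x axis) and exercise replicate 2 (y axis) for the listed genes with counts in both sedentary libraries (1113 genes, 54 of them outside the axes). The 7 enzyme genes are red, and Xdh lies apart from the others at 0.98 and 1.45.

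Because the scaling of shares depends on which genes were listed, Xdh was also set against each other enzyme gene within the same library, where depth and the choice of total cancel. There were 19.7 and 17.6 Xdh counts per 100 Cpox counts in sedentary replicates 1 and 2, and 44.1 and 63.8 in exercise replicates 1 and 2. Per 100 Lpin2 counts there were 62.5 and 56.6 in sedentary and 134 and 157 in exercised bone. Per 100 mt-Co1 counts the values were 0.642 and 0.590 against 1.65 and 1.73, the closest pair of exercise values of all 6 comparisons. All 6 ratios share the Xdh counts, so they are not separate results and largely restate its higher share. They stood apart between groups, at 2.37 to 2.89 times the sedentary mean. For the 15 pairs that leave Xdh out, this factor lay between 0.81 and 1.18, and 6 of the 15 stood apart between groups. The genes were chosen with this contrast known, and pairs of other listed genes were not measured, so nothing is read from these counts.

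**Figure D3:**
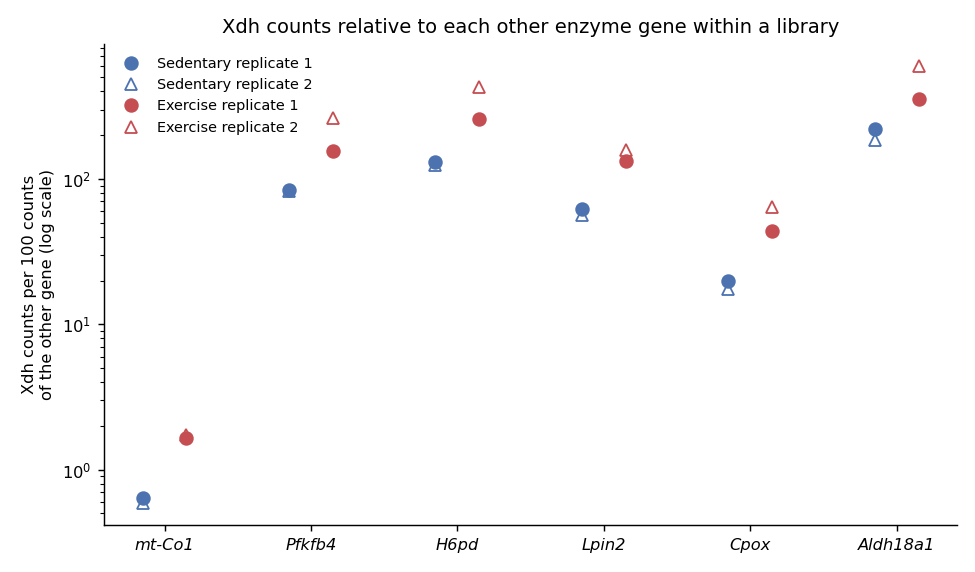
Xdh counts per 100 counts of each other enzyme gene in the same library (y axis, log scale), by library. Exercise values lie above sedentary values for all 6 reference genes, for example at 44.1 and 63.8 against 19.7 and 17.6 per 100 Cpox counts.

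Of 27 genes in a fixed purine list, 5 were in the table, and Xdh was the only one past the study's thresholds in edgeR with 4 libraries. Ampd3, an AMP deaminase, had shares of 691 and 737 in sedentary replicates 1 and 2 and of 765 and 858 in exercise replicates 1 and 2, giving a ratio of 0.19 ± 0.15 (log2). Both exercise shares of Ampd3 lay above both sedentary shares, as they did for 36% of all listed genes, Xdh among them. Ampd2, a second AMP deaminase, had a ratio of -0.23 ± 0.24, and Nt5c2, a nucleotidase that acts on IMP and GMP, of -0.19 ± 0.16. Adsl, adenylosuccinate lyase of purine synthesis, had a ratio of -0.09 ± 0.16. Both exercise shares of Nt5c2 lay below both sedentary ones, as in 16.1% of all listed genes, while the groups overlapped for Ampd2 and Adsl. Dropping exercise replicate 1 put Ampd3 at 0.27, Ampd2 at -0.58, Nt5c2 at -0.30 and Adsl at -0.036. Dropping exercise replicate 2 instead put Ampd3 at 0.10, Ampd2 at 0.045, Nt5c2 at -0.084 and Adsl at -0.15. Each of these fits has 1 exercise library, so only the sizes are given. These 4 genes also have fractional counts.

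Marker genes of other cell types that bone can hold were measured beside Xdh. None of the 8 fixed endothelial markers was in the table, and endothelium is known to express Xdh. Other endothelial genes, Stab2 and Sele, were picked after their values were seen, so nothing is read from them. Stab2 had shares of 415 and 480 in sedentary and 457 and 538 in exercised bone. Sele, with 7 and 13 counts in sedentary and 40 and 214 in exercised bone, had a log2 share ratio of 1.64 ± 0.82. Neither passed the study's thresholds. Vwf, given below with the platelet markers and also an endothelial gene, went the other way at -0.23 ± 0.18. Of 10 granulocyte markers 2 were listed, Csf3r and Padi4, with summed shares of 5436 and 5334 in sedentary and 6978 and 5669 in exercised bone. Csf3r was higher in both exercise libraries and Padi4 overlapped, and neither passed the study's thresholds. Of 10 B lymphocyte markers 4 were listed, and their summed share was 22074 and 22288 in sedentary bone against 42592 and 11405 in exercised bone, so the exercise libraries lay on either side. Nearly all of this sum was Ighm, at 41148 and 9160 in exercise replicates 1 and 2, while Rag1, Pax5 and Cd22 were lower in exercise replicate 1 than in replicate 2, and all 4 overlapped between groups. Of 9 megakaryocyte and platelet markers 3 were listed, with summed shares of 4584 and 4456 in sedentary and 4722 and 3994 in exercised bone. Among them F5, coagulation factor V, passed the study's thresholds with a log2 share ratio of 0.75 ± 0.20, while Vwf was at -0.23 ± 0.18 and Alox12 at -0.32 ± 0.24. Counts were fractional for F5 and Vwf and whole for Alox12. Outside this list, the platelet genes Tubb1 and Gp1ba were picked after their values were seen, so nothing is read from them. Their log2 share ratios were 2.13 ± 0.40 and 0.93 ± 0.17, and their counts were whole. Both passed the study's thresholds, as 11.3% of all listed genes did with a higher share. The part of these cells in the Xdh value was not tested.

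Cytochrome c oxidase subunit I, the product of mt-Co1, came from the most highly counted gene of the table. It had 68913 and 60538 counts in sedentary replicates 1 and 2 and 99310 and 302764 in exercise replicates 1 and 2. These were 11.6% and 11.7% of all counts in sedentary bone and 8.55% and 11.3% in exercised bone. Exercise replicate 1 stood lowest, while exercise replicate 2 was close to the sedentary pair. The log2 share ratio was -0.23 ± 0.18, short of the study's thresholds in edgeR. It was -0.45, past them, without exercise replicate 2 and -0.04 without exercise replicate 1, so its size rested on 1 library.

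A gene with this weight in the total bears on the share of every other gene. With totals that leave mt-Co1 out, the log2 share ratio of Xdh was 1.21, that of Cpox -0.32 and that of Aldh18a1 -0.01. Of the 32 respiratory chain genes in the fixed list, 13 of them mitochondrial, mt-Co1 was the only one in the table. No other mitochondrial transcript was therefore at hand to set beside it.

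Coproporphyrinogen oxidase, the product of Cpox, catalyses a late step of haem synthesis in mitochondria. Its counts were 2241.79 and 2027.75 in sedentary replicates 1 and 2 and 3722.12 and 8219.09 in exercise replicates 1 and 2. Its shares were 3769 and 3922 in sedentary and 3206 and 3066 in exercised bone, means of 3846 ± 109 and 3136 ± 99.1 (SD, n = 2 each). The groups did not overlap, and this gene had the closest pair of exercise shares of the 7. The log2 share ratio was -0.29 ± 0.13, the lowest of the 7 genes, and 3.40% of listed genes lay below it.

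Cpox did not pass the study's thresholds with 4 libraries in edgeR, but it did so with a lower share in 4 of 12 alternatives. These were totals without mt-Co1, where 0.851% of all genes passed with a lower share, the Wald test of DESeq2 (1.19%), and the fits without exercise replicate 1 (15.6%) or exercise replicate 2 (10.4%). In every one of the 12 its log2 share ratio was negative, from -0.40 to -0.26. Of 14 fixed erythroid markers 3 were listed, Epb42, Sptb and Ank1, all encoding parts of the red cell membrane skeleton. The log2 share ratio was -0.24 ± 0.18 for Epb42 and -0.28 ± 0.14 for Sptb, neither past the study's thresholds, and 0.43 ± 0.15 for Ank1, which passed them. Counts were fractional for Ank1 and whole for Epb42 and Sptb. Haemoglobin genes were not among those listed and are not analysed here. The summed share of the 3 was 10949 and 11109 in sedentary and 9842 and 10767 in exercised bone. Their part in the Cpox value was not tested. Of 14 genes of haem synthesis and breakdown, Cpox was the only one listed.

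H6pd encodes the hexose-6-phosphate dehydrogenase of the endoplasmic reticulum, which makes NADPH inside that compartment (ENSMUSG00000028980.14, chromosome 4, 149979475 to 150009023, minus strand). It had 339 and 286 counts in sedentary replicates 1 and 2 and 635 and 1232 in exercise replicates 1 and 2. Its shares were 570 and 553 in sedentary and 547 and 460 in exercised bone. Both exercise shares lay below the sedentary ones, that of replicate 1 by less than the gap within the sedentary pair. The log2 share ratio was -0.16 ± 0.17, and it was -0.29 without exercise replicate 1 against -0.04 without exercise replicate 2.

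G6pdx, the cytosolic counterpart of H6pd, was the only other gene listed of 8 in the pentose phosphate list. Its shares were 3569 and 3505 in sedentary and 3763 and 2376 in exercised bone. The log2 share ratio was -0.21 ± 0.24, and -0.57 without exercise replicate 1. The exercise libraries lay on either side of the sedentary pair. In H6pd and G6pdx alike, exercise replicate 2 had the lowest share of the 4 libraries.

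Pfkfb4 encodes a kinase and phosphatase that sets fructose 2,6-bisphosphate, an activator of glycolysis (ENSMUSG00000025648.18, chromosome 9, 108991778 to 109032228, plus strand). It had 528 and 429 counts in sedentary replicates 1 and 2 and 1060 and 2004 in exercise replicates 1 and 2. Its shares were 888 and 830 in sedentary and 913 and 748 in exercised bone. The exercise libraries lay on either side of the sedentary pair, and the log2 share ratio was -0.05 ± 0.16. The hexokinase gene Hk1, the only other gene listed of 24 in the glycolysis list, had a ratio of 0.09 ± 0.18. This ratio was negative with DESeq2 size factors and was 0.27 without exercise replicate 2.

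Lpin2 encodes a phosphatidate phosphatase of glycerolipid synthesis (ENSMUSG00000024052.17, chromosome 17, 71182560 to 71249817, plus strand). It had 708 and 631 counts in sedentary replicates 1 and 2 and 1227 and 3332 in exercise replicates 1 and 2. Its shares were 1190 and 1221 in sedentary and 1057 and 1243 in exercised bone, so the exercise pair spanned the sedentary pair. Its log2 share ratio was -0.07 ± 0.15. Pcyt1a, which makes CDP-choline for phosphatidylcholine and was the only other gene listed of 24 in the lipid list, had a ratio of -0.08 ± 0.15. The Lpin2 gene lies inside a longer noncoding gene on the same strand, Gm26561, yet its counts were whole.

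Aldh18a1 encodes pyrroline-5-carboxylate synthase, the entry enzyme of proline synthesis from glutamate (ENSMUSG00000025007.13, chromosome 19, 40550257 to 40588463, minus strand). It was the least counted of the 7 genes, with 201 and 194 counts in sedentary replicates 1 and 2 and 460 and 875 in exercise replicates 1 and 2. Its shares were 338 and 375 in sedentary and 396 and 326 in exercised bone, and the 4 libraries overlapped. Its log2 share ratio was 0.02 ± 0.18, and its sign was negative with DESeq2 size factors or TMM factors. Counting alone left its share in sedentary replicate 2 uncertain from 326 to 432 (95% Wilson interval, counting error only), a range that holds the shares of all 4 libraries. It was the only gene listed of 8 in the proline list.

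**Figure D4:**
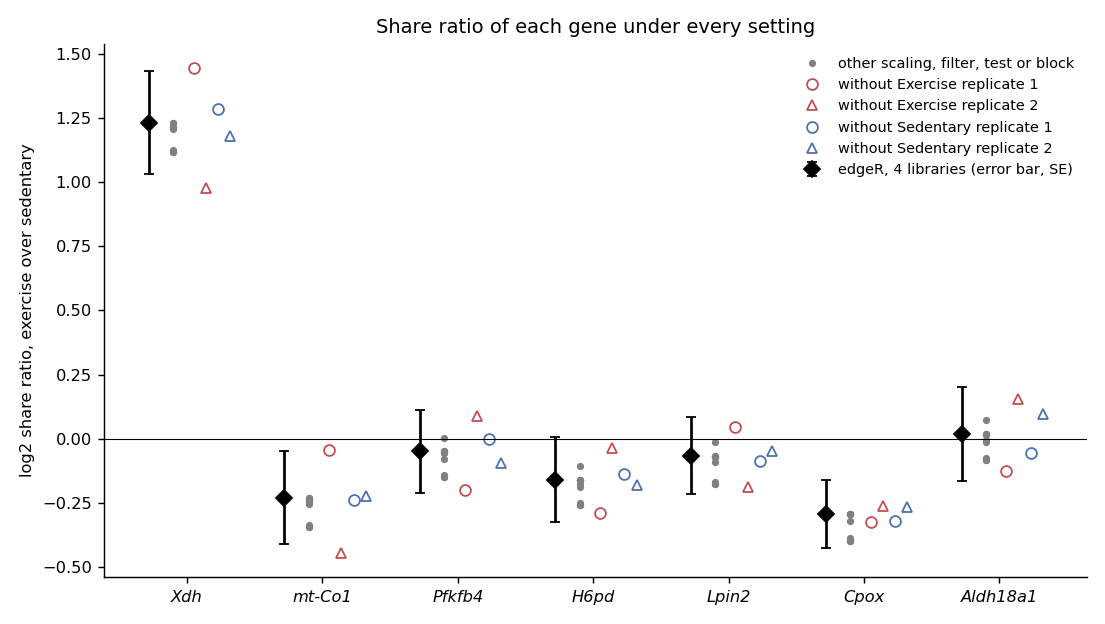
Log2 share ratio, exercise over sedentary, of each gene (y axis) in edgeR with 4 libraries (black, SE) and in the alternatives. Xdh lies at 0.98 or above in every one, and Pfkfb4, Lpin2 and Aldh18a1 lie on both sides of 0.

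The differences between exercise replicates did not have one direction among the 7 genes. From exercise replicate 1 to replicate 2 the log2 share ratio was 0.47 for Xdh, 0.40 for mt-Co1 and 0.23 for Lpin2. It was -0.29 for Pfkfb4, -0.28 for Aldh18a1, -0.25 for H6pd and -0.06 for Cpox. Between sedentary replicates the absolute log2 ratio was at most 0.15. For mt-Co1, H6pd, Lpin2, Pfkfb4 and Aldh18a1, the gap within the exercise pair was larger than the difference between the group means.

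Over the 7 fixed pathway lists, 14 of 137 genes were in the table, 7 of them members. None of the other 7 passed the study's thresholds in edgeR with 4 libraries, 2 had a log2 share ratio above 0 and their median was -0.09, against 64.1% of all listed genes above 0 and a median of 0.14. The pathway lists therefore held no other listed gene with a share ratio near that of Xdh.

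**Figure D5:**
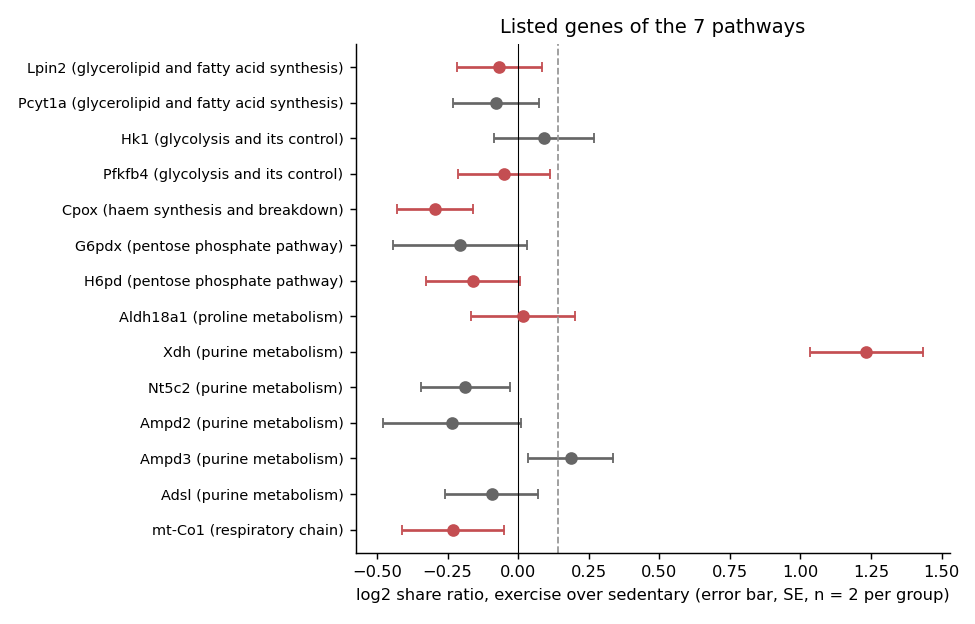
Log2 share ratio (x axis, SE, n = 2 per group) of the 14 listed pathway genes, the 7 enzyme genes in red and the others in grey, with a dashed line at the median of all listed genes, 0.14. Xdh lies at 1.23, and the other 13 lie between -0.29 and 0.19.

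Per kilobase of annotated exon, the order of levels in sedentary bone was mt-Co1, with a share of 75389, then Cpox with 577, Pfkfb4 with 176, H6pd with 107, Lpin2 with 98.5, Aldh18a1 with 87.6 and Xdh with 78.1. In exercised bone Xdh followed mt-Co1 and Cpox, at 184 against 170 for Pfkfb4. Whether the reads cover whole transcripts is not given in the sources used here, so the order would differ if 1 end of each transcript was counted. It also depends on the length used, since the exons of Xdh include a long retained-intron transcript. Per kilobase of a coding transcript, the sedentary share of Xdh was 156, above H6pd at 118 and Aldh18a1 at 101 and below Lpin2 at 214 and Pfkfb4 at 246. In exercised bone the values per kilobase of a coding transcript were 366 for Xdh and 238 for Pfkfb4. Per kilobase of annotated exon, the order of these 2 genes in exercised bone was not resolved by 2 libraries.

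The gene most like each member other than Xdh in pattern was taken from 1001 other genes that had no count of 0 and averaged 100 counts or more, by the Euclidean distance of centred log2 shares over the 4 libraries. The nearest were Mycbp2 (mt-Co1), Arhgap1 (Pfkfb4), Tln1 (H6pd), Zwilch (Lpin2), Mtmr3 (Cpox) and Man2b2 (Aldh18a1), at distances from 0.02 to 0.05, and 65 to 157 genes lay within 0.2 of each. With 4 libraries such likeness is a description only.

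The pattern of listing had 1 further feature. Pfkfb4, H6pd, Lpin2, Cpox and Aldh18a1, 5 of the 7 genes, are also in the supplementary gene list for higher expression only in Zmpste24-deficient periosteal progenitors (pSSPCs), a model of premature ageing in other cells. Of the 722 genes in that list 37 were in the bone table, 5.12% of the list and 3.15% of the table. In shares, 14 of the 37 had a log2 ratio above 0, their median was -0.10, and 1 passed the study's thresholds. Xdh and mt-Co1 were in none of the supplementary lists. The genes were chosen with earlier results known, so this overlap was not tested.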

How the data were processed

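The authors trimmed adapters, mapped reads to mm10 with STAR, counted with HTSeq and removed duplicates by UMI. The 1 deposited table holds estimated counts, unscaled, of 1175 genes, and the sources used here do not give versions, annotation, strand setting or how those genes were chosen. All 4 columns were matched to libraries by name. Rounded counts went into the quasi-likelihood test in edgeR 4.0.16 (R 4.3.3) on column totals, without a low-count filter or covariates, and adjusted by Benjamini-Hochberg over 1175 genes. Each standard error divides the size of the log2 ratio by √F. The fit was tested on simulated counts with the same dispersion in all libraries. An exercise pair as uneven as the real one was not simulated. No exact permutation test was used, since with 2 libraries per group its smallest p is 0.333. Alternatives were DESeq2 1.42.0, the study's tool (size factors, Wald test), TMM, totals without mt-Co1, limma-voom (limma 3.58.1), filters on low counts, whole-count genes, the replicate number as a block and each library left out. Members, lists and tests were chosen with earlier results of these data known, and the search for shared stretches after the fractions were seen. Genes named were the 7 members, listed genes of 7 pathway and 10 marker lists, and the nearest gene to each member, which for Xdh is not reported here. Positions and transcripts are from GENCODE release M21, and sequences were aligned with Biopython 1.88. Other tools were pandas 2.3.3, SciPy 1.17.1 and matplotlib 3.10.9.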

Additional observations from a re-analysis of the deposited data

How the results depend on the processing

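Of the 7 genes, Xdh kept its direction and its side of the study's thresholds in all 12 alternatives that could fit it. Genes past those thresholds, 134 in edgeR, were 68 with limma-voom, 45 among the whole-count genes, which are fewer, and 44 to 650 when single libraries were dropped. Genes past an adjusted p of 0.05, 4 in edgeR, were 36 with the DESeq2 Wald test, 0 with limma-voom or among whole-count genes, 12 with the replicate block, and 0 to 651 when single libraries were dropped. Members past the study's thresholds, 1 in edgeR, were 2 with totals without mt-Co1 or the Wald test (Xdh and Cpox), 0 among whole-count genes, where Xdh is not included, and 1 to 3 with each library left out. Fits without 1 exercise library assume that the lone library varies like the sedentary pair. The sign of Aldh18a1 turned to -0.083 with DESeq2 size factors, -0.075 with TMM, -0.012 with totals without mt-Co1, -0.082 with the Wald test and -0.0044 with limma-voom, that of Hk1 to -0.0062 with size factors and with the Wald test, and that of Pfkfb4 to 0.0039 among whole-count genes, and the cause was not tested. With each library left out Aldh18a1 lay between -0.13 and 0.15, Pfkfb4 between -0.20 and 0.087, Lpin2 between -0.19 and 0.045, Hk1 between -0.12 and 0.27, Ampd2 between -0.58 and 0.045, G6pdx between -0.57 and 0.089 and Pcyt1a between -0.20 and 0.055. The replicate block changed no member's call, and the correlation across genes between deviations of same-numbered libraries was -0.08. With 1 pair of libraries per group this cannot show whether same-numbered libraries shared a batch. DESeq2 size factors moved the median of all genes from 0.14 to 0.04. Since the libraries' true totals are unknown, directions hold for shares only.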
